A study of Mus musculus with 12 samples.

Results

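The epididymis and duct secretory genes are 30 genes whose products are known from the tubes that carry sperm away from the testis. They were chosen by symbol from the deposited gene table, and all 30 are among its 20788 genes. By role they are 7 lipocalins, 5 sperm coat and surface proteins, 7 defensins and defensin-like proteins, 2 members of the ribonuclease A family, 4 proteases and protease inhibitors, 2 enzymes, 1 channel and 2 transcription factors.

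The data are RNA sequencing of testes from F1 mice of the strain given as IRC mouse, in 12 libraries that fall into 4 groups of 3. The overexpression group received a virus for overexpression of lncRNA8276, a long non-coding RNA for which the sources used here give no other name, and is set against the control labelled 5NC, called control_5NC here. The knockdown group received a virus for inhibition of lncRNA8276 and is set against the control labelled 3NC, called control_3NC here. The labels spell out neither control, name neither the virus, its promoter nor the cells it reached, give no age, and are silent on whether each library is a separate animal. The p-values therefore rest on library-to-library spread alone, some of which may be technical. The design pairs each control with a modified group by the order in which its text lists them.

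Sperm leave the testis immotile and pass through the rete testis and efferent ducts into the epididymis, a long coiled tube, and then into the vas deferens. The epithelium of the epididymis secretes region by region a set of lipocalins, defensins, protease inhibitors and sperm-binding proteins that coat the passing sperm, and much of this secretion depends on androgen made by the Leydig cells of the testis. Gpx5 and the epididymal lipocalins are known in the mouse from the head of the epididymis, the part nearest the testis, and Akr1b7 is known as the mouse vas deferens protein. Pax2 and Pax8 are transcription factors that form the Wolffian duct, from which epididymis and vas deferens arise.

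The 12 libraries held 13485479 to 15771655 estimated counts each. Levels are given as estimated counts or as normalised CPM, which is the count divided by the library total, scaled by edgeR's trimmed mean of M-values (TMM), on the usual CPM scale. Markers of testis were present in every library, with 7 germ cell genes summing to 9426.6 to 12614.5 CPM and 8 Sertoli cell genes to 142.4 to 203.0 CPM. Leydig cell markers, 6 genes, summed to 915.2 CPM in knockdown 1, 1031.9 CPM in control_3NC 3 and 1395.9 CPM in control_5NC 2, and to between 1631.1 and 2091.0 CPM in the other 9 libraries. Leukocyte markers summed to 261.7 CPM in control_3NC 2 and to 22.5 to 31.1 CPM elsewhere, and interferon-response genes to 208.9 CPM there against 3.45 to 14.9 CPM elsewhere. In bulk samples such as these, fewer cells of a type and less RNA per cell cannot be told apart.

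The members formed 3 patterns over the libraries, which are described in turn. In the first, 15 members had at least 80% of their counts in 1 library, knockdown 1, among them Gpx5, Spag11b, Akr1b7 and 5 lipocalins. In the second, Crisp1, Adam7, Spink8 and Rnase9 were spread over libraries of all 4 groups at levels that differed many fold between replicates. In the third, Lcn2, Aqp9, Pax2 and Defb21 were present in every library, with the highest at most 2.7-fold above the lowest, and Rnase10 was present in every library but varied more. Of the 29 members with at least 10 counts in all, 24 were highest in knockdown 1. Neither the share of all genes highest there nor the share with at least 80% of counts there was computed. The members were also chosen with earlier results of these data known. Crisp1 and Crisp4 were highest in control_5NC 2, Aqp9 in control_5NC 3, Lcn2 in knockdown 3 and Pax2 in overexpression 1.

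**Figure D1:**
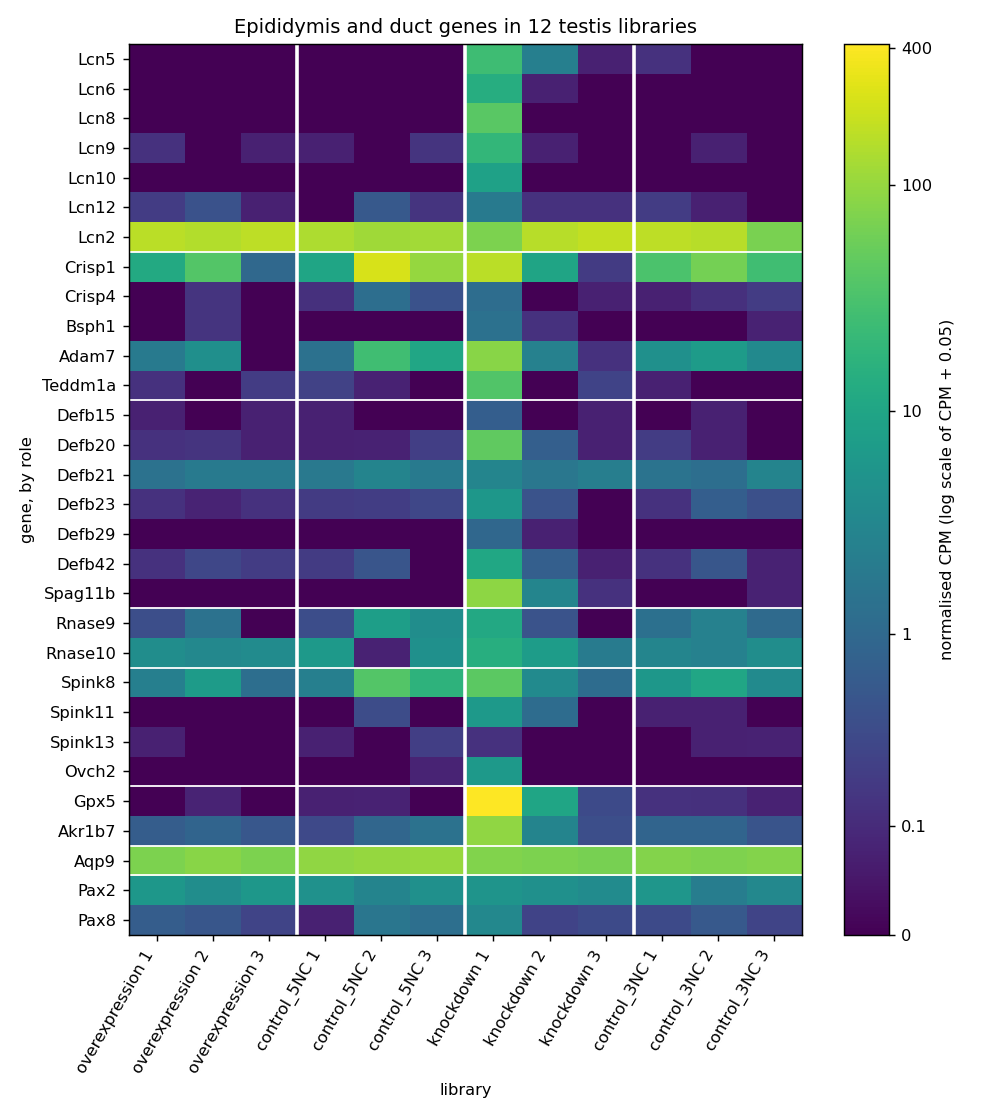
Normalised CPM of the 30 members (rows, ordered by role) in the 12 libraries (columns), on a colour scale that is logarithmic in CPM + 0.05. Knockdown 1 is the column in which most rows are brightest, with Gpx5 at 415.6 CPM, while Lcn2 and Aqp9 form bright rows across all columns.

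The upstream sequences of 4 genes are shown because these genes stand for the first 2 patterns: Lcn5 and Lcn9, lipocalin genes of chromosome 2, Gpx5 and Crisp1. Each is the 250 bases before a transcript's start as RefSeq's promoter entry on GRCm38.p6 gives it, written 5′ to 3′ on the strand of the gene. RefSeq's gene table starts some of these genes further upstream, so that the last 65 bases of the Lcn9 window, 41 of the Gpx5 window and 20 of the Lcn5 window lie within the gene by that table. Capitals mark AGAACA, the half-site of the androgen receptor, or TATAAA, the TATA box, on either strand. The windows lie at chr2:25657702-25657951 (plus strand) for Lcn5, chr2:25822903-25823152 (plus strand) for Lcn9, chr13:21292687-21292936 (minus strand) for Gpx5 and chr17:40319208-40319457 (minus strand) for Crisp1.
Lcn5: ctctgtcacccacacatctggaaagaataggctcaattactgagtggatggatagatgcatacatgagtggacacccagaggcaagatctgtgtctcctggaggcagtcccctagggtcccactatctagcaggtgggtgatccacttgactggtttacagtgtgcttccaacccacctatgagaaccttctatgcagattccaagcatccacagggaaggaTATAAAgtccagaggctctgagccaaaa
Lcn9: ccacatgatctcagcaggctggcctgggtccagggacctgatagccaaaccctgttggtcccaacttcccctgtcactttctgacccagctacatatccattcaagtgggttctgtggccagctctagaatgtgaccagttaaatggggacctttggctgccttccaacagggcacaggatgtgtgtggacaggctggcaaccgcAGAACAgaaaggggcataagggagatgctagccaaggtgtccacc
Gpx5: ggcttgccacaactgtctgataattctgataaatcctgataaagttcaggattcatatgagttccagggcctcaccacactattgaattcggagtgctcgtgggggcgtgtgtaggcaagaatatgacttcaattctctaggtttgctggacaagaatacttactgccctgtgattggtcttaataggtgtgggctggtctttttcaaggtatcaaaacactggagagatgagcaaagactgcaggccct
Crisp1: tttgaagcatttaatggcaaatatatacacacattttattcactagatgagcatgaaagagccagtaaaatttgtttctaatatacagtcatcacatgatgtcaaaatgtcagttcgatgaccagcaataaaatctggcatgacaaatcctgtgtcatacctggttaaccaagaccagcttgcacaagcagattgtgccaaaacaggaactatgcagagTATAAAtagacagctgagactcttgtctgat
Counted back from the end of the window, Lcn5 and Crisp1 have a TATA box at positions -28 and -31, Lcn9 has an androgen receptor half-site at -45, within the gene by the gene table, and the Gpx5 window holds neither string of letters. Of the 24 members with a RefSeq promoter entry, 10 (41.7%) had AGAACA or its reverse complement TGTTCT in at least 1 of their windows, against 16.1% of all 32851 RefSeq windows of that length. TATAAA or TTTATA was found for 4 of the 24 (16.7%), against 12.4% of all windows, and AGGAAG or CTTCCT, a core of ETS factors such as PEA3, for 8 of 24 (33.3%), against 29.5%. The 24 members have 29 windows and a member counts once, so the members' shares run slightly higher by construction. The half-site was in windows of Crisp4, Lcn12, Lcn6, Lcn10, Lcn9, Defb23, Akr1b7, Defb15, Aqp9 and Rnase10. These genes belong to more than 1 of the patterns. A match is a string of letters and no evidence of a bound factor.

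The lipocalins are small secreted carriers of hydrophobic ligands, and 6 of the 7 members lie together on chromosome 2 (GRCm38), between 25490845 and 25825546, a stretch of 334702 bases. Lcn5, a retinoic acid carrier of the epididymis, had 393, 37 and 1 counts in knockdown 1, 2 and 3, against 2, 0 and 0 in control_3NC, and 0 in each library of overexpression and control_5NC. Lcn8 had 637 counts in knockdown 1 and 0 in every other library. Lcn6 had 219, 1 and 0 counts in knockdown and 0 in every library of the other 3 groups. These 3 genes were thus at or near 0 outside the knockdown group.

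Lcn9 had 311, 1 and 0 counts in knockdown, against 0, 1 and 0 in control_3NC; it had 2, 0 and 1 in overexpression, against 1, 0 and 2 in control_5NC. Lcn10 had 138 counts in knockdown 1 and 0 elsewhere. Lcn12, the sixth gene of the cluster, was low throughout, with 30 counts in knockdown 1 and 0 to 8 elsewhere. With the control_3NC libraries at 0, a fold is a lower bound set by a floor of 3 counts over the group: at least 209.2-fold higher in knockdown for Lcn8, 72.2-fold for Lcn6 and 45.3-fold for Lcn10, each resting on knockdown 1. Lcn5 was 212.3-fold higher in summed counts (95% exact counting interval 58.4 to 1758.6), and 28.2-fold (7.29 to 241.4) without knockdown 1. Intervals and floors cover counting error only.

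Neighbours of the lipocalins did not share this pattern as a block. Within the stretch and 50000 bases on either side, the table has 29 genes, and 7 of the 23 that are not members were highest in knockdown 1. The share of all genes highest in that library was not computed. Among the 7, Bmyc had 60 counts in knockdown 1 and 18 to 36 elsewhere, and Abca2 443 and 215 to 345. Ptgds, which encodes lipocalin-type prostaglandin D synthase, had 597 counts in knockdown 1 and a median of 1075 over the other 11 libraries. Lcn3 and Lcn11, further lipocalin genes between the members, had 0 counts in knockdown 1 and at most 1 elsewhere.

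Gpx5 encodes a glutathione peroxidase secreted onto sperm by the epididymis, and it had the highest level of any member in any library. It had 6509, 156 and 5 counts in knockdown 1, 2 and 3, against 2, 2 and 1 in control_3NC, and 0, 1 and 0 in overexpression, against 1, 1 and 0 in control_5NC. In normalised CPM the knockdown libraries were at 415.6, 10.1 and 0.324, against 0.133, 0.125 and 0.0676 in control_3NC. All 3 knockdown libraries lay above all 3 of control_3NC, but they differed among themselves far more than the control libraries did. The ratio of summed counts was 1314.1 (562.8 to 4048.6), and 47.8 (20.1 to 149.3) without knockdown 1.

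Akr1b7 encodes an aldo-keto reductase that is abundant in the vas deferens and is also made in the adrenal cortex. It was at 93.2, 2.92 and 0.389 CPM in knockdown, against 0.862, 0.877 and 0.473 CPM in control_3NC, and at 0.657, 0.881 and 0.531 CPM in overexpression, against 0.314, 0.918 and 1.44 CPM in control_5NC. Knockdown 3 lay below all of control_3NC, so the groups overlapped. Akr1b7 was 43.8-fold higher in summed counts (31.2 to 63.5), and 2.23-fold (1.42 to 3.55) without knockdown 1. Markers of adrenal cortex, 4 genes, summed to 8.75 to 13.3 CPM in knockdown and 5.76 to 6.04 CPM in control_3NC. They summed to 13 CPM in knockdown 3, where Akr1b7 was low. Nearly all of this was Cyp21a1, at 12.9, 8.69 and 12.5 CPM in knockdown, against 5.84, 5.63 and 5.68 CPM in control_3NC. Cyp11b1, Cyp11b2 and Mc2r were at most 0.324 CPM in any library.

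The defensins are short cationic antimicrobial peptides, many of which the epididymis also places on sperm. Spag11b, a defensin-like gene of the epididymis, had 1381, 46 and 2 counts in knockdown, against 0, 0 and 1 in control_3NC, and none in overexpression or control_5NC. Defb20 had 707, 11 and 1 counts in knockdown, against 3, 1 and 0 in control_3NC; it had 2, 2 and 1 in overexpression, against 1, 1 and 3 in control_5NC. For both genes the order was knockdown 1, then knockdown 2, with knockdown 3 inside or near the range of the other groups.

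Defb42 had 170, 11 and 1 counts in knockdown, against 2, 8 and 1 in control_3NC; it had 2, 4 and 3 in overexpression, against 3, 7 and 0 in control_5NC. Defb23 had 93, 7 and 0 counts in knockdown, against 2, 11 and 6 in control_3NC; it had 2, 1 and 2 in overexpression, against 3, 3 and 4 in control_5NC. Both were high in knockdown 1 alone. Defb29 had 15 of its 16 counts there and Defb15 had 11 of 16.

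Defb21 broke with the other defensins. It was at 1.45, 1.98 and 1.99 CPM in overexpression, against 1.89, 2.89 and 2.01 CPM in control_5NC, and at 3.00, 1.75 and 2.33 CPM in knockdown, against 1.53, 1.25 and 2.91 CPM in control_3NC. The highest library was 2.4-fold above the lowest and all 4 groups overlapped. On GRCm38 it lies on chromosome 2 at 152572743 to 152574944, near Defb29 (152538714 to 152540041), Defb20 (152477063 to 152479934) and Defb23 (152459055 to 152464620).

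The remaining members with most of their counts in knockdown 1 were proteases, inhibitors and surface proteins. Ovch2, a serine protease-like gene of the epididymal head needed for sperm maturation in the mouse, had 101 counts in knockdown 1 and 1 in all other libraries together. Spink11, a Kazal-type protease inhibitor gene, had 103, 18 and 0 counts in knockdown, against 1, 1 and 0 in control_3NC; it had 0 in all overexpression libraries, against 0, 5 and 0 in control_5NC. Both were thus highest in knockdown 1, and Spink11 was next highest in knockdown 2.

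Teddm1a, an epididymal transmembrane protein gene, had 560.97, 0 and 4.31 estimated counts in knockdown, against 1, 0 and 0 in control_3NC; it had 2, 0 and 2.98 in overexpression, against 4, 1 and 0 in control_5NC. It was the 1 member with fractional counts, as arise where reads are shared with a similar gene, so its values are uncertain. Bsph1, a sperm-binding protein gene, had 22 of its 27 counts in knockdown 1. Spink13, also a Kazal-type inhibitor gene, had 9 counts over all libraries.

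Several genes present in knockdown 1 were also in knockdown 2, but not in the same proportions. Of the 12 members at 3 counts or fewer in every library outside the knockdown group, 4 were above that in knockdown 2: Gpx5, Spag11b, Lcn5 and Defb20. Per 100 counts of Gpx5, Spag11b had 21.2 counts in knockdown 1 and 29.5 in knockdown 2, and Akr1b7 had 22.4 and 28.8. Lcn5 had 6.04 (95% exact counting interval 5.44 to 6.69) in knockdown 1 and 23.7 (16.1 to 34.1) in knockdown 2, and Spink11 had 1.58 (1.29 to 1.92) and 11.5 (6.66 to 18.8). Lcn8 had 9.79 (9.01 to 10.6) in knockdown 1 and none in knockdown 2, where 0 counts against 156 of Gpx5 allow up to 2.39. Teddm1a likewise had 8.62 (7.89 to 9.4) and none. Defb42 had 2.61 (2.23 to 3.04) and 7.05 (3.45 to 13), and Lcn9 had 4.78 (4.25 to 5.35) and 0.641 (0.0161 to 3.62). Knockdown 1 and knockdown 2 thus held different mixtures of these transcripts, beyond counting error. The intervals do not overlap for Lcn5, Spink11, Lcn8, Defb42, Lcn9 and Teddm1a, of which Teddm1a has uncertain counts.

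**Figure D2:**
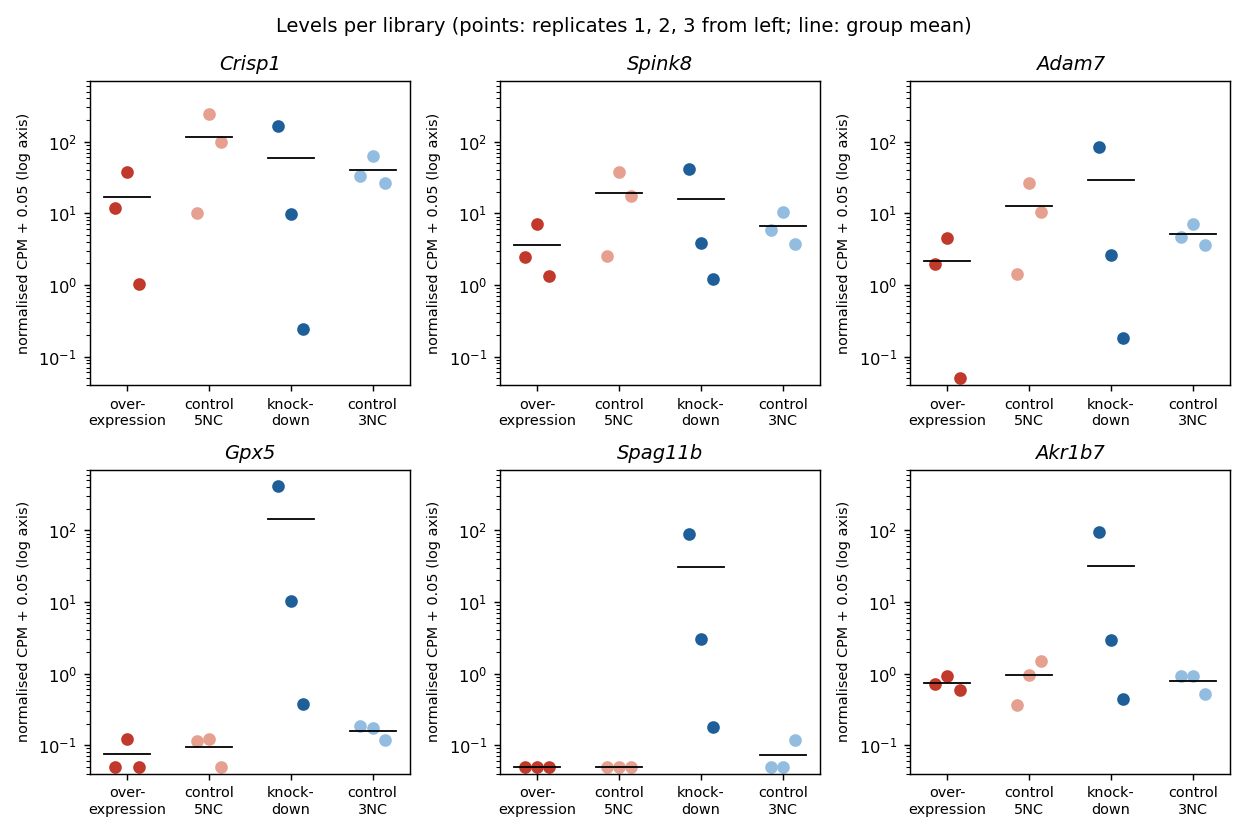
Normalised CPM + 0.05 on a log axis for Crisp1, Spink8, Adam7, Gpx5, Spag11b and Akr1b7 in each library, with points for replicates 1, 2 and 3 from left and a line at the mean of each group (n = 3). Crisp1, Spink8 and Adam7 spread widely in most groups, while Gpx5, Spag11b and Akr1b7 stand high in knockdown 1 and, less so, in knockdown 2.

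Crisp1 encodes a cysteine-rich secretory protein that binds to sperm in the epididymis, and it was abundant in libraries of all 4 groups. It was at 11.8, 37.4 and 0.995 CPM in overexpression, against 9.93, 240.0 and 98.9 CPM in control_5NC. It was at 165.5, 9.79 and 0.194 CPM in knockdown, against 32.6, 62 and 26.3 CPM in control_3NC. Every group except control_3NC had one library at 10 CPM or less and another several times higher, and the highest library stood 1235.0-fold above the lowest. The groups averaged 16.7 ± 18.7 CPM in overexpression, 116.3 ± 116.0 CPM in control_5NC, 58.5 ± 92.8 CPM in knockdown and 40.3 ± 19.0 CPM in control_3NC (SD, n = 3 each).

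Adam7, Spink8 and Rnase9 followed Crisp1 through the libraries outside knockdown. Adam7, a disintegrin family gene whose protein the epididymis passes to sperm, was at 1.91, 4.48 and 0 CPM in overexpression, against 1.38, 26.2 and 10.3 CPM in control_5NC, and at 83.9, 2.59 and 0.13 CPM in knockdown, against 4.58, 7.07 and 3.52 CPM in control_3NC. Spink8, a Kazal-type protease inhibitor gene, was at 2.37, 7.12 and 1.26 CPM in overexpression, against 2.45, 37.6 and 17.3 CPM in control_5NC, and at 42.0, 3.76 and 1.17 CPM in knockdown, against 5.84, 10.3 and 3.72 CPM in control_3NC. Rnase9, a ribonuclease A family gene of the epididymis, was at 0.394, 1.47 and 0 CPM in overexpression, against 0.377, 7.84 and 4.10 CPM in control_5NC, and at 11.7, 0.454 and 0 CPM in knockdown, against 1.33, 2.63 and 1.08 CPM in control_3NC. In all 3 genes control_5NC 2, control_5NC 3 and knockdown 1 were the 3 highest libraries.

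The ratio of these genes to Crisp1 was steady outside knockdown where Crisp1 had at least 100 counts. Overexpression 3 fell short of that, with 15 counts of Crisp1, 19 of Spink8 and 0 each of Adam7 and Rnase9. In the 8 libraries of overexpression, control_5NC and control_3NC with at least 100 Crisp1 counts, Adam7 had 10.4 to 16.2 counts per 100 of Crisp1, Spink8 14.1 to 24.7 and Rnase9 3.26 to 4.24. In knockdown 1 and knockdown 2 Adam7 had 50.7 (95% exact counting interval 47.4 to 54.2) and 26.5 (18.2 to 37.8) per 100, above that range. Spink8 had 25.3 (23.2 to 27.6) and 38.4 (27.9 to 52.3), of which the first could not be told from the top of the range by its interval. Rnase9 had 7.1 (6.08 to 8.25) and 4.64 (1.83 to 9.79), of which the second, from 7 counts, lay within counting error of the range. Gpx5 had 251.1 and 103.3 per 100 Crisp1 counts in knockdown 1 and 2, against 0 to 0.633 in the 8. Knockdown 1 had 2592 Crisp1 and 6509 Gpx5 counts, while control_5NC 2 had 3400 Crisp1 counts and 1 Gpx5 count.

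**Figure D3:**
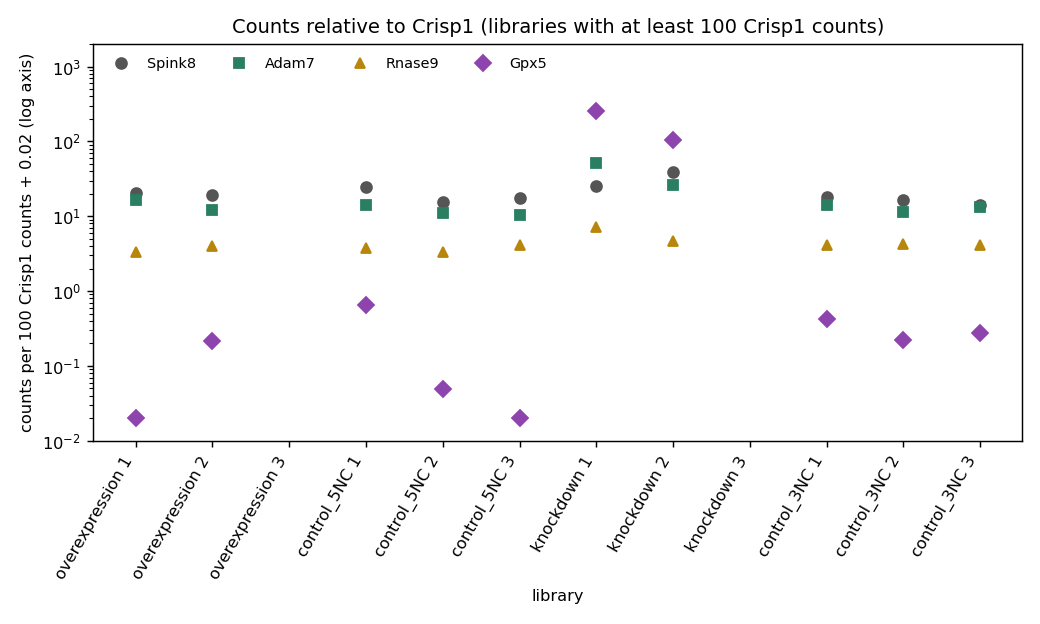
Counts of Spink8, Adam7, Rnase9 and Gpx5 per 100 counts of Crisp1 in each library with at least 100 Crisp1 counts, on a log axis after adding 0.02; overexpression 3 and knockdown 3 had fewer and are blank. Spink8, Adam7 and Rnase9 run level over the 8 libraries outside knockdown, and Gpx5 lies above them in knockdown 1 and knockdown 2 and below them elsewhere.

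Crisp4, a relative of Crisp1 and a main sperm-binding CRISP of the mouse epididymis, was near the limit of detection, with 18 counts in control_5NC 2, 19 in knockdown 1 and 0 to 6 elsewhere. Pax8 was at 0.657, 0.514 and 0.265 CPM in overexpression, against 0.0628, 1.69 and 1.29 CPM in control_5NC, and at 3.38, 0.259 and 0.324 CPM in knockdown, against 0.332, 0.563 and 0.271 CPM in control_3NC. Its 3 highest libraries were those of Adam7, Spink8 and Rnase9. Pax2 did not follow them: it was at 5.98, 4.11 and 5.84 CPM in overexpression, against 4.71, 2.89 and 4.53 CPM in control_5NC, and at 5.24, 4.54 and 3.89 CPM in knockdown, against 5.64, 2.25 and 3.31 CPM in control_3NC. Its groups overlapped in both comparisons.

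Lcn2 encodes the lipocalin also known as neutrophil gelatinase-associated lipocalin, which binds bacterial siderophores. It was at 163.7, 146.2 and 168.3 CPM in overexpression, against 139.1, 116.3 and 118.8 CPM in control_5NC. It was at 70.6, 158.0 and 182.3 CPM in knockdown, against 166.6, 158.9 and 67.4 CPM in control_3NC. The overexpression libraries all lay above those of control_5NC, and knockdown and control_3NC overlapped.

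The 3 libraries lowest in Lcn2, which were control_3NC 3, knockdown 1 and control_5NC 2, were also the 3 lowest in the summed Leydig cell markers given above. Gene by gene this held for Cyp17a1, Cyp11a1 and Star, but not for Insl3, Lhcgr and Hsd3b1. Hsd3b1 was at 140.7 CPM in knockdown 1, within a range of 94.9 to 148.3 CPM over the libraries. Neutrophil markers, 8 genes, were highest in control_3NC 2 at 26.9 CPM, where Lcn2 was at 158.9 CPM, and at 10.6 CPM in knockdown 1, where Lcn2 was at 70.6 CPM. The part of either cell type in the level of Lcn2 was not tested. Lcn2 lies at 32384637 to 32387739 on chromosome 2 (GRCm38), outside the cluster of the other lipocalins.

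**Figure D4:**
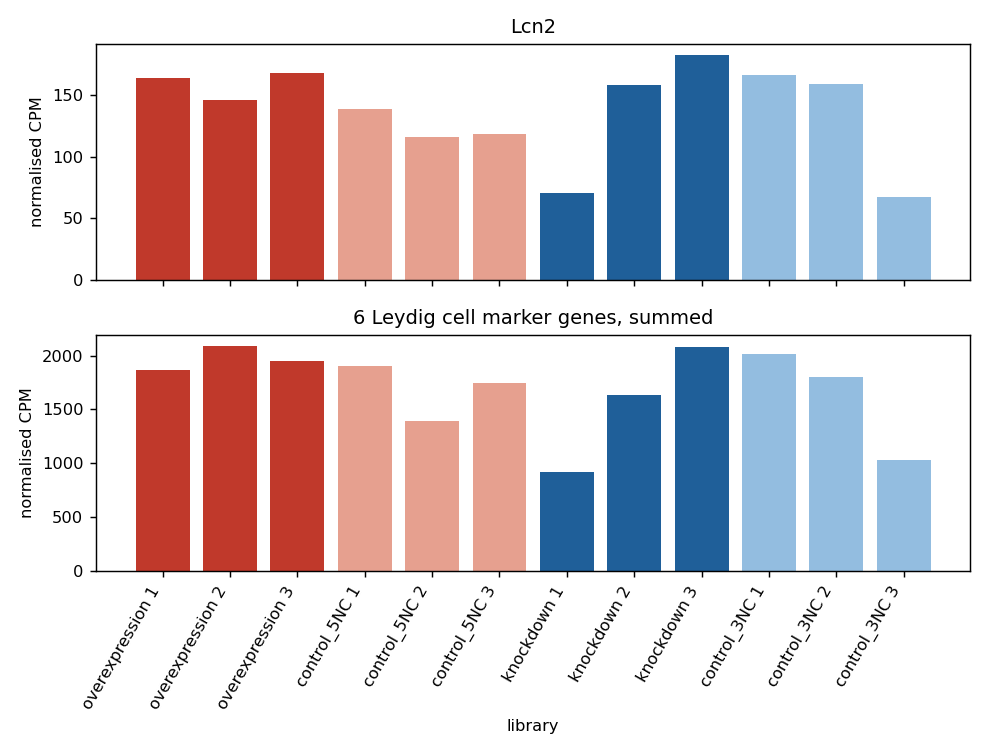
Normalised CPM of Lcn2 (above) and the summed normalised CPM of 6 Leydig cell marker genes (below) in each of the 12 libraries, 1 bar per library. Control_3NC 3, knockdown 1 and control_5NC 2 are the 3 lowest bars in both panels, with Leydig sums of 1031.9, 915.2 and 1395.9 CPM.

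Aqp9, which encodes a water and glycerol channel of the epididymal epithelium, was at 69.3, 83.6 and 70.9 CPM in overexpression, against 93.1, 99.8 and 102.2 CPM in control_5NC. It was at 75.5, 70.8 and 64.7 CPM in knockdown, against 78.2, 72.9 and 77.8 CPM in control_3NC. Every control_5NC library was above every library of the other 3 groups, and the highest library stood only 1.58-fold above the lowest. Aqp9 averaged 74.6 ± 7.81 CPM in overexpression and 98.4 ± 4.70 CPM in control_5NC, and 70.3 ± 5.39 CPM in knockdown and 76.3 ± 2.96 CPM in control_3NC (SD, n = 3 each).

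Rnase10, the second ribonuclease A family member, was at 4.07, 3.30 and 3.78 CPM in overexpression, against 6.66, 0.0706 and 4.60 CPM in control_5NC, and at 14.4, 7.26 and 2.07 CPM in knockdown, against 2.99, 2.63 and 4.06 CPM in control_3NC. Its value in control_5NC 2 is 1 count, while the other 11 libraries had 32 to 225. Control_5NC 2 was the highest library for Crisp1 and second highest for Rnase9, whose gene lies at 51038459 to 51041903 on chromosome 14 (GRCm38), near Rnase10 at 51007751 to 51010761.

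Levels per length give the order of the members within a library. In CPM per kilobase of exon (GENCODE M21), knockdown 1 was led by Gpx5 at 248.3, Crisp1 at 116.9, Akr1b7 at 72.8, Defb20 at 65.4, Lcn8 at 62.5, Spink8 at 51.1 and Spag11b at 50.7. In control_5NC 2 the order was Crisp1 at 169.5, Spink8 at 45.8 and Lcn2 at 44.3, and Gpx5 was at 0.0422. These levels carry no error, since each is 1 library.

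Summed over all 30 members, the level was 263.2, 292.4 and 254.7 CPM in overexpression, against 261.1, 539.3 and 366.9 CPM in control_5NC, and 1297.7, 281.1 and 258.7 CPM in knockdown, against 301.6, 323.2 and 191.8 CPM in control_3NC. Lcn2 and Aqp9 made up most of the sum in most libraries. Without them it was 30.2, 62.6 and 15.5 CPM in overexpression, against 28.8, 323.2 and 145.9 CPM in control_5NC, and 1151.7, 52.3 and 11.7 CPM in knockdown, against 56.8, 91.4 and 46.6 CPM in control_3NC. Knockdown held both the highest and the lowest of these 12 sums.

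Tests between groups could be made for 11 members, those with enough counts in at least 3 libraries. The other 19 failed that filter, among them Gpx5 and Spag11b, whose counts sat in knockdown 1 and 2. Since the members that passed did so on their own levels, the counts below describe them and not all 30. By edgeR's quasi-likelihood test with Benjamini-Hochberg adjustment over 16395 genes at 0.05, 0 of the 11 members passed in overexpression against control_5NC, where 0.476% of all genes did. At an unadjusted p below 0.05 there was 1 member, Aqp9, with 2506 genes in all. DESeq2 called 1 member, Aqp9, and limma-voom none. The median log2 fold change was -0.40 over the 11 members and -0.01 over all genes, with 2 of 11 above 0.

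In knockdown against control_3NC, 0 of 11 members passed, where 0.0183% of all genes did. At an unadjusted p below 0.05 there was 1 member, Akr1b7, with 1424 genes in all; DESeq2 called 1 member, Akr1b7, and limma-voom none. The median log2 fold change was 1.23 over the members and -0.03 over all genes, with 10 of 11 above 0. That count hung on knockdown 1. Without it Crisp1, Adam7, Rnase9, Spink8 and Pax8 fell below 0, while Akr1b7, Lcn2, Pax2, Rnase10 and Defb21 stayed above. The share of all genes above 0 was not computed for any comparison. The difference between the overexpression and knockdown effects passed for 0 of 11 members and for 0.0183% of all genes, with 0 members and 1104 genes at an unadjusted p below 0.05, and with no member called by DESeq2 or limma-voom.

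The control groups differed from each other too. In control_5NC against control_3NC, 0 of 11 members passed, where 0.244% of all genes did; 1 member, Aqp9, and 2111 genes in all were at an unadjusted p below 0.05, DESeq2 called 1 member, Aqp9, and limma-voom none. Between the control groups the median log2 fold change was 0.37 over the members and -0.02 over all genes, with 10 of 11 above 0. The overexpression and control comparisons share the control_5NC libraries, and the knockdown and control comparisons share those of control_3NC. Members whose groups did not overlap are given with the share of all genes beside them. The counts were not tested against those shares. In overexpression against control_5NC, 1 of 11 members was wholly higher (Lcn2; 11.7% of all genes) and 1 wholly lower (Aqp9; 10.3%). In knockdown against control_3NC none was wholly higher (6.48% of all genes) or lower (6.57%). In control_5NC against control_3NC, 1 was wholly higher (Aqp9; 7.02%) and none lower (6.17%).

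Aqp9 came nearest to a call. Its log2 fold change was -0.40 ± 0.09 in overexpression against control_5NC (SE; adjusted p = 0.0818, edgeR), 0.37 ± 0.09 in control_5NC against control_3NC (adjusted p = 0.159, edgeR) and -0.12 ± 0.09 in knockdown against control_3NC (adjusted p = 0.651, edgeR). DESeq2 gave it adjusted p = 0.00333 in the first and 0.019 in the second of these. Leaving out overexpression 2 brought the first to an adjusted p of 0.0406 by edgeR, with a log2 fold change of -0.49. Leaving out any 1 other library of that comparison raised the adjusted p, to between 0.113 and 0.35 by edgeR.

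For Crisp1 and the genes that followed it, the errors of the fold changes were large. In overexpression against control_5NC the log2 fold changes were -2.81 ± 1.73 for Crisp1, -2.58 ± 1.84 for Adam7, -2.74 ± 1.74 for Rnase9 and -2.42 ± 1.36 for Spink8 (adjusted p 0.463 to 0.581, edgeR). Their size hung on single libraries: without control_5NC 2 they were -1.71, -1.46, -1.86 and -1.47 in the same order, and without overexpression 2 they were -4.18, -3.71, -4.31 and -3.39. In knockdown against control_3NC they were 0.54 ± 1.61, 2.51 ± 1.70, 1.27 ± 1.55 and 1.23 ± 1.29 (adjusted p 0.619 to 0.914, edgeR). Without knockdown 1 they turned to -3.01 for Crisp1, -1.89 for Adam7, -2.85 for Rnase9 and -1.43 for Spink8, so that knockdown 1 decided the direction. Summed Crisp1 counts in knockdown were 1.45 times those of control_3NC (counting interval 1.36 to 1.53), and 0.122 times (0.103 to 0.144) without knockdown 1.

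Akr1b7 had the largest fold change among the tested members, 5.43 ± 1.69 on the log2 scale in knockdown against control_3NC (adjusted p = 0.559 by edgeR, 0.0438 by DESeq2), and 1.15 without knockdown 1. In overexpression against control_5NC it was at -0.35 ± 1.99 (adjusted p = 0.963, edgeR). Pax8 was at -1.06 ± 1.07 in overexpression against control_5NC and at 1.74 ± 1.06 in knockdown against control_3NC, the second value turning to -0.41 without knockdown 1. Lcn2 was at 0.35 ± 0.37 and 0.06 ± 0.37, Pax2 at 0.39 ± 0.31 and 0.29 ± 0.31, Defb21 at -0.32 ± 0.34 and 0.32 ± 0.34, and Rnase10 at -0.03 ± 0.92 and 1.29 ± 0.91 in the same comparisons. None of these passed (adjusted p 0.586 to 0.995, edgeR).

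**Figure D5:**
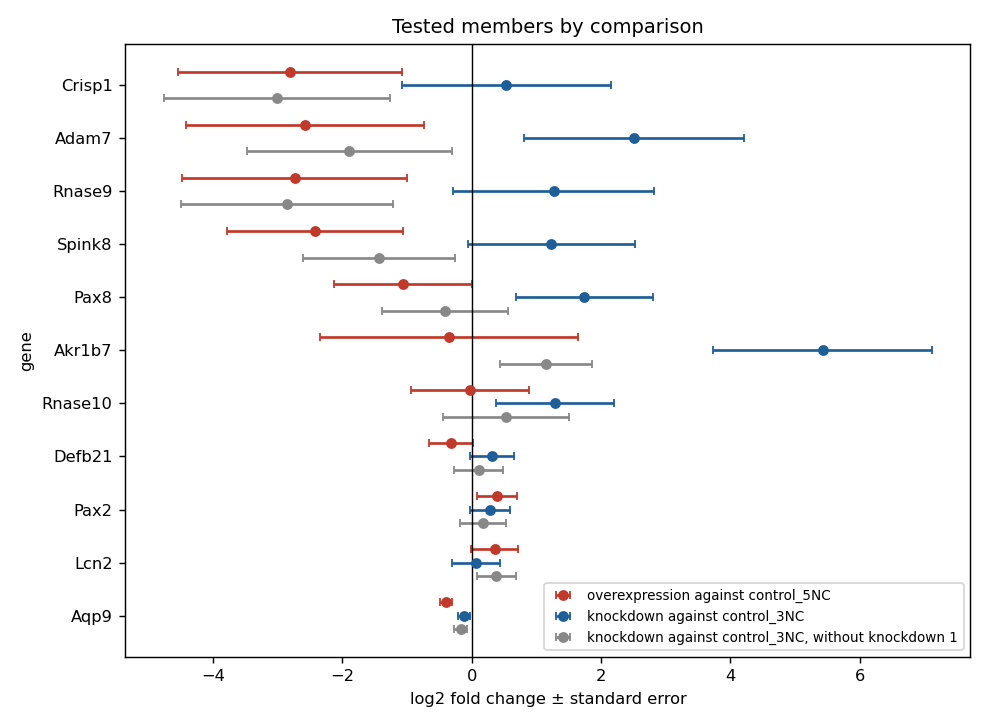
Log2 fold change ± standard error of the 11 tested members in overexpression against control_5NC (red), knockdown against control_3NC (blue) and the knockdown comparison without knockdown 1 (grey), from edgeR. For Crisp1, Adam7, Rnase9, Spink8 and Pax8 the blue point lies right of 0 and the grey one left of it; Crisp1 is at 0.54 and -3.01.

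Testing all genes with at least 1 count, with no filter on low counts, brought in all 30 members among 20487 genes and called none in any of the 4 comparisons by edgeR. It called 0.254% of all genes in overexpression against control_5NC, 0.161% between the control groups, and 0.0146% each in knockdown against control_3NC and for the difference of effects. In knockdown against control_3NC 11 of 30 members (36.7%) were at an unadjusted p below 0.05, against 1679 of all genes (8.20%). The lowest adjusted p of a member was 0.592. Each of the 11 had at least 50% of its counts in knockdown 1. The members were chosen with earlier results of these data known, so their share is no test of the list. In the other comparisons 1 or 2 members were at an unadjusted p below 0.05. Gpx5 was at 10.2 ± 2.72 on the log2 scale in knockdown against control_3NC.

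Some markers of other tissues were highest in knockdown 1 as well. Epithelial markers, 6 genes, summed to 69.8 CPM in knockdown 1 and to 35.6 to 48.5 CPM in the other libraries, with 5 of 6 highest there; Cdh16, a cadherin gene best known from kidney tubules, was at 6.39 CPM in knockdown 1 and at most 0.862 CPM elsewhere. Duct muscle and peritubular markers, 6 genes, summed to 445.4 CPM in knockdown 1 and 277.3 to 365.0 CPM elsewhere, again with 5 of 6 highest there. Smooth muscle myosin Myh11 was at 65.3 CPM in knockdown 1 and 23.1 to 34.9 CPM elsewhere. Adipocyte markers summed to 70.3 CPM in knockdown 1 and 18.5 to 55.7 CPM elsewhere, but only 2 of 6, Cfd and Fabp4, were highest there. In control_5NC 2, where Crisp1 was highest, the epithelial sum was 48.5 CPM and the duct muscle sum 277.3 CPM, the lowest of the 12. Actg2 alone made up 195.1 CPM of that muscle sum. Myh11 was at 29.6 CPM in control_5NC 2, within the range of the libraries other than knockdown 1. Knockdown 1 also had the lowest Leydig sum. The part of these tissues in the members' levels was not tested.

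Genes outside the list most like its sum over the 12 libraries, by Pearson's r of log2(CPM + 0.5), were the glutamate transporter gene Slc1a1 (r = 0.96), C4bp (0.957), the transcription factor gene Tfap2b (0.957), Serpina1f (0.952) and Glb1l2 (0.933). Cldn7, Gstm7, Faim2, Ehf and Adgrg2 followed at 0.929 to 0.906. With Crisp1 taken out of the sum, the nearest were the amino acid transporter gene Slc38a5 (0.959), the muscle genes Tpm2 (0.954) and Myh11 (0.95), Hoxd4 (0.943) and Adgrg2 (0.941), which encodes a receptor of the efferent ducts. Adgrg2 was at 22.5 CPM in knockdown 1 and at 0.566 to 1.88 CPM elsewhere. These r values describe 12 libraries, and knockdown 1 stands far from the rest in both sums.

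A wider list of 91 other genes of epididymis and duct had 88 in the table, 81 of them with at least 10 counts and 53 tested. None passed in any of the 4 comparisons by edgeR, where 0.476%, 0.0183%, 0.244% and 0.0183% of all genes did in the order used above for overexpression, knockdown, the control groups and the difference of effects. At an unadjusted p below 0.05 there were 6 of 53 (11.3%, against 15.3% of all genes) in the overexpression comparison and 7 (13.2%, against 8.69%) in the knockdown comparison. There were 3 (5.66%, against 12.9%) between the control groups and 5 (9.43%, against 6.73%) for the difference of effects. Their median log2 fold changes were -0.30, 0.32, 0.28 and -0.95 in that order, against -0.01, -0.03, -0.02 and 0.03 over all genes. Of the 81, 34 were highest in knockdown 1 and 22 in control_5NC 2, but the shares of all genes highest in these libraries were not computed.

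All 3 patterns of the members were also found in the wider list. In 9 of its genes at least 80% of the counts lay in knockdown 1, the 4 with most counts there being the cystatin gene Cst11 with 356 of 386 counts, Defb47 with 280 of 296, Adam28 with 157 of 174.29 and Defb48 with 131 of 141. Others were high where Crisp1 was: Wfdc13, a whey acidic protein domain gene, had 24, 52 and 2 counts in overexpression, against 22, 309 and 147 in control_5NC, and 316, 34 and 7 in knockdown, against 67, 95 and 39 in control_3NC. Serpina16 had 25, 47 and 3 counts in overexpression, against 29, 288 and 130 in control_5NC, and 192, 7 and 2 in knockdown, against 48, 66 and 30 in control_3NC. Wfdc16 had the same 3 highest libraries, with 277 counts in control_5NC 2, 229 in knockdown 1 and 126 in control_5NC 3. Cst8, a cystatin gene of epididymis that male germ cells also express, had 1880 to 2710 counts in every library.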

How the data were processed

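The authors deposited 1 estimated count per gene and library, named read counts per the file headers; 88.2% of the values are whole numbers and the rest carry fractions, so they are treated as estimated counts. The submitters' processing notes name the genome build mm10. The aligner, counter, gene annotation and strand setting were not given in the sources used here. A gene and its overlapping or antisense partner therefore cannot be separated. The table's 18 per-sample columns of 9 other samples, and its normalised values of unnamed unit for these libraries, were not used. The level of lncRNA8276 is not analysed here.

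Counts were rounded to whole numbers and tested with edgeR 4.0.16 in R 4.3.3. The filter was filterByExpr with the groups (minimum count 10), which kept 16395 genes and left out 4393. Libraries were scaled by TMM, and 1 robust quasi-likelihood fit with a mean for each of the 4 groups covered all 12 libraries, which share 1 estimate of the spread (common dispersion 0.0388, a biological coefficient of variation of 19.7%). Benjamini-Hochberg adjustment ran over all genes tested, with 0.05 as the threshold. Pairs of libraries within a group all differed by more than counting noise (chi-square over its degrees of freedom, 3.13 to 41). Alternatives were DESeq2 1.42.0, limma-voom (limma 3.58.1), other scalings and filters, a replicate block, a covariate for the 3 smallest libraries, and leaving out each library. The fit was tested on simulated data in which whole groups differed, which does not cover a single library that stands apart from its group. Ratios of summed counts were scaled by library size and given with exact intervals.

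The members and lists were chosen with earlier results of these data known. Values in every library were given for members that passed the filter or had a mean of at least 0.5 CPM over the libraries; the rest were named with their counts. Likeness named the 10 genes with the highest r outside the list. Positions are from RefSeq and exon lengths from GENCODE M21, both on GRCm38.p6, the assembly behind mm10. Promoter windows are from RefSeq.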

Additional observations from a re-analysis of the deposited data

How the results depend on the processing

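Of 336 fold changes of tested members recomputed under alternatives, 19 changed direction and 4 passed the threshold; 3 had no adjusted p in DESeq2. DESeq2 called 1 member each in overexpression against control_5NC, knockdown against control_3NC and control_5NC against control_3NC. Leaving out 1 library gave 0 to 1 members in overexpression against control_5NC, and 5 to 217 genes in all, 1 to 9 in knockdown against control_3NC, 7 to 126 in control_5NC against control_3NC and 3 to 12 for the difference of effects. As reported, these counts of genes were 78, 3, 40 and 3; DESeq2 gave 742, 23, 305 and 53. Scaling by total counts gave 163 genes in overexpression against control_5NC and 68 in control_5NC against control_3NC. For control_5NC against control_3NC, limma-voom gave 13 genes, fitting only the libraries compared 9, and a covariate for the 3 smallest libraries 6; fitting only the libraries compared gave 0 in knockdown against control_3NC. The fit for the difference of effects uses all groups, so it has no such smaller fit.

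By limma-voom Rnase10 turned to 1.28 in overexpression against control_5NC, and in knockdown against control_3NC Rnase9 turned to -1.48, Spink8 to -0.09, Crisp1 to -2.38 and Adam7 to -0.56. With the covariate for the smallest libraries Akr1b7 turned to 0.093 in overexpression against control_5NC. The cause was not tested. Over fits without 1 library each, the log2 fold change in overexpression against control_5NC ran between -0.60 and 0.67 for Rnase10 and between -0.78 and 0.18 for Akr1b7. In knockdown against control_3NC it ran between -2.85 and 1.85 for Rnase9, -1.43 and 1.78 for Spink8, -3.01 and 1.12 for Crisp1, -1.89 and 3.09 for Adam7, -0.41 and 2.22 for Pax8 and -0.25 and 0.38 for Lcn2. The lowest values of Rnase9, Spink8, Crisp1, Adam7 and Pax8 are those without knockdown 1. The mean summed level of the members without Lcn2 was 110.7 CPM in overexpression and 264.4 CPM in control_5NC, and 475.5 CPM in knockdown and 141.2 CPM in control_3NC. Fold changes in the control comparison other than that of Aqp9, and those of the difference of effects, were not carried through the alternatives.

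Whether replicate numbers pair the samples could not be settled. Deviations of same-numbered libraries correlated at 0.21, 0.313 and -0.125 between overexpression and control_5NC, where differently numbered ones correlated at -0.412 to 0.271. Same-numbered libraries correlated at 0.0377, -0.0393 and -0.0933 between knockdown and control_3NC. Between control_5NC and control_3NC they correlated at 0.299, 0.181 and 0.00317, and differently numbered ones at -0.26 to 0.0556. With the replicate block, 269 genes passed in overexpression against control_5NC and 6 for the difference of effects, no member passed, and Rnase10 turned to 0.21 in overexpression against control_5NC. Depth limits the members under 10 counts a library, for which a count of 0 does not show absence.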

Other observations

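Ltf, the lactoferrin gene, stood in the neutrophil marker list, and its highest library was knockdown 1, while the summed list was highest in control_3NC 2. It was at 0.657, 1.03 and 0.133 CPM in overexpression, against 0.377, 4.66 and 2.16 CPM in control_5NC, and at 4.92, 0.0648 and 0.0648 CPM in knockdown, against 0.531, 2.38 and 0.676 CPM in control_3NC. S100a9, a calgranulin gene of neutrophils in the same list, was at 12.6 CPM in control_3NC 2, 2.11 CPM in knockdown 1 and at most 0.812 CPM elsewhere. Both genes were picked after their values were seen.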
